A study of Arabidopsis thaliana with 3 samples.

Results

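The wells described here held a sorted lateral root primordium cell of Arabidopsis thaliana in which TMO5 was read. TMO5 (TARGET OF MONOPTEROS 5, AT3G25710) encodes a bHLH transcription factor of the embryonic and root vasculature. Wells with at least 500 genes with a read were kept, and TMO5 wells were selected on their TMO5 reads, at least 1 being enough. They numbered 110 of 322 kept wells, a share of 34.2% with an exact 95% binomial interval (Clopper-Pearson) of 29.0 to 39.6. The 212 kept wells without a TMO5 read were the comparison. TMO5 reads chose the wells, so the values of TMO5 itself are a description and carry no test.

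The series profiled Columbia-0 seedlings at 5 days after germination, all of them carrying a nuclear triple mCherry reporter driven by the promoter of HB53, a homeodomain-leucine zipper gene. After protoplasting, cells with mCherry signal were sorted by flow cytometry, and the RNA of each plate well was sequenced with single-end reads of 150 bp. The labels give stages I-IV and 1 group with 3 replicates, and none of the sources says which replicate a well came from. All wells therefore count as 1 sample, no p-value was computed, and intervals cover counting error only, since reads copied by PCR are not independent molecules. The HB53 promoter decides which cells were sorted. HB53 itself was read in 15.5% of TMO5 wells and in 12.9% of the others, the latter weighted as explained further on. The 6 plates were sequenced on 3 flow cells, taken here as technical batches. Whether flow cells coincide with the replicates is not known, and the presence of more than 1 cell in a well was not tested.

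In the vascular tissue of embryos and root tips, TMO5 forms heterodimers with LHW, another bHLH protein, and the pair drives the longitudinal divisions that widen the vascular bundle. The dimer switches on LOG3 and LOG4, which encode enzymes of the last step of cytokinin activation, and AHP6, which encodes an inhibitor of cytokinin signalling in the xylem axis. TMO5 is itself a target of MONOPTEROS (MP), an auxin response factor. ACL5 encodes a thermospermine synthase, and thermospermine feeds back on the same dimer through the SAC51 family of bHLH proteins.

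TMO5 was read on every plate. TMO5 wells made up 32.4% of kept wells on flow cell 1 (33 of 102), 29.2% on flow cell 2 (28 of 96) and 39.5% on flow cell 3 (49 of 124). By plate the share ran from 22.6% (plate 2) to 47.5% (plate 3). A TMO5 well held between 1 and 1044 TMO5 reads with a median of 63. As CPM, reads scaled to a common total per well, the lowest TMO5 level was 4.60, the median 292 and the highest 3337. Median levels were 300.5, 457 and 234 CPM on flow cells 1, 2 and 3, so the 3 ranges overlapped widely. Only 5 wells were members through a lone read, 52 wells held 10 to 99 reads and 10 wells held 500 or more. The top 10 wells gave 39.2% of all 16592 TMO5 reads, and the top well gave 6.29%. At the limit of the rule, the 6 wells with 1 or 2 TMO5 reads had 39902 to 435251 reads in all. The 212 wells just outside had 8315 to 1409141.

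**Figure D1:**
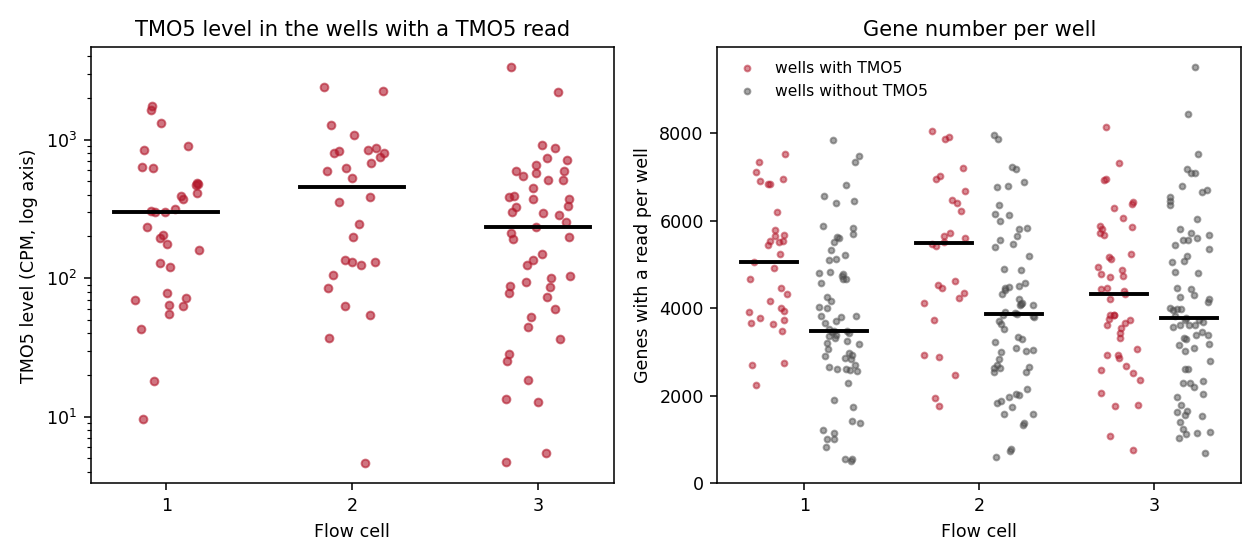
Left, TMO5 level in CPM on a log axis for each of the 110 wells with a TMO5 read, by flow cell, with the median as a bar. Right, genes with a read per well for wells with TMO5 (red) and without (grey), with medians; TMO5 wells have the higher median on each flow cell.

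Among the 251 wells below 500 genes, 0 held a TMO5 read, which allows a share of up to 1.20% by the limit of 3 counts and 1.46% by the exact interval. Those wells had a median of 3922 reads and 52 genes. The TMO5 wells held more genes than the others, with medians of 4687.5 and 3758.5, with a median of 245742 and 247882 reads. Within flow cells 1, 2 and 3 the median reads were 488018, 411399 and 136678 in TMO5 wells and 391508, 449304 and 122794 in the others. The share of TMO5 wells rose from 20.6% of the wells with the fewest genes to 34.6% and 47.2% of those in the middle and upper classes of 3. Wells were also thinned to 115851 reads, and 20 TMO5 wells and 45 others with fewer reads were left out. After thinning, 88 of the 257 wells left (34.2%) held a TMO5 read. Grouped by TMO5 reads before thinning, 90 TMO5 wells and 167 others had median gene numbers of 4383.5 and 3702. Gene number thus moved with TMO5 detection, and its part in the results below was not tested beyond the weighting. For every gene, the share of other wells with a read was averaged over 9 strata, made of flow cell and class of gene number, with the weights of the TMO5 wells.

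A gene was called higher when its share of TMO5 wells was at least 1.5 times the weighted share of other wells and above it on each of the 3 flow cells, and lower by the mirror rule. Of 11682 genes with a read in at least 10% of kept wells, 379 were called higher (3.24%) and 378 lower (3.24%). When the weights took in flow cell only, 1674 were called higher and 125 lower, so the balance between both directions depended on the correction for gene number. Leaving out flow cell 1, 2 or 3 asks for the same direction on fewer flow cells, and gave 626, 582 and 818 genes called higher and 675, 645 and 701 called lower. The median ratio of shares over all tested genes was 1.01. Of the genes called higher, 149 were read in fewer than 10% of the other wells and so were tested only through the TMO5 wells. Among the genes named below they included LOG4, AT1G29950, WOX11, AUR1, NUDT10, MYB41, AT3G08630, THO7, AT2G34340, AT1G24130 and AT3G51720. Likewise 115 of the genes called lower were read in fewer than 10% of the TMO5 wells, among them SMXL3, NAC020, MYB68, CRF2 and AT2G31940. Such genes could be tested only if they differed, so counts over lists that hold them are descriptions.

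The genes nearest to TMO5 in function came first. Of 18 genes of the TMO5-LHW module other than TMO5, 9 were read widely enough to be tested. Of these 9, 4 were called higher and 0 lower (1 lower without flow cell 3), where 3.24% of all tested genes were called in each direction. The median ratio of the 9 was 1.20 against 1.01 over all genes. The 4 were 3 bHLH genes and LOG4. The largest difference was that of AT2G41130, a bHLH gene, with a read in 67 TMO5 wells, or 60.9% (51.1 to 70.1), against 22.2% of other wells. On flow cells 1, 2 and 3 its shares were 63.6, 67.9 and 55.1% of TMO5 wells and 27.2, 24.5 and 17.5% of the others. The lowest share among TMO5 wells was thus more than any share among the others. In wells with a read, its median level was 191 CPM with TMO5 and 120 CPM without, and the highest levels were 820 and 1070 CPM. The wells with the highest level of this gene therefore included wells without TMO5.

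AT3G56770, another bHLH gene, was read in 29.1% (20.8 to 38.5) of TMO5 wells against 14.5%. LOG4 was read in 25.5% against 10.4%, with 21.2, 39.3 and 20.4% on the 3 flow cells against 11.1, 12.8 and 8.54%. AT1G29950, a gene of the bHLH type grouped with SAC51 in the list, was read in 19.1% against 12.1%; its ratio was 1.22 without flow cell 1 and 1.35 without plate 3, below the limit. LHW and its relatives, the partners of TMO5, were not called. LHW itself was read in 21.8% (14.5 to 30.7) of TMO5 wells and 22.5% of the others, LHL1 in 27.3 and 25.9% and LHL2 in 24.5 and 20.4%. SAC51, with 13.6 and 15.8%, and the DOF gene AT2G28510, with 20 and 26.6%, were not called either.

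The remaining 9 module genes were read in too few wells for the rule. None of their differences is a call. LOG3 was read in 13 TMO5 wells (11.8%, 6.45 to 19.4) and 5 others (2.32% weighted). AHP6 was read in 13 TMO5 wells (11.8%) and 4 others (2.55%). ACL5 was read in 12 TMO5 wells (10.9%, 5.77 to 18.3) and 4 others (1.29%). Each of these 3 genes was read in a larger share of TMO5 wells on all 3 flow cells. BGLU44, a beta-glucosidase gene reported as a target of the dimer, was read in 17.3% of TMO5 wells against 4.43%, though on flow cell 2 its shares were 3.57 and 4.23%. T5L1 (TMO5-LIKE1), a close relative of TMO5, was read in 6 TMO5 wells and 5 others. CKX3, a cytokinin oxidase gene, was read in 5.45 against 1.55% of wells, AT5G50010 in 7.27 against 2.24%, LHL3 in 2.73 against 4.06% and AT5G09460 in 4.55 against 7.58%.

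**Figure D2:**
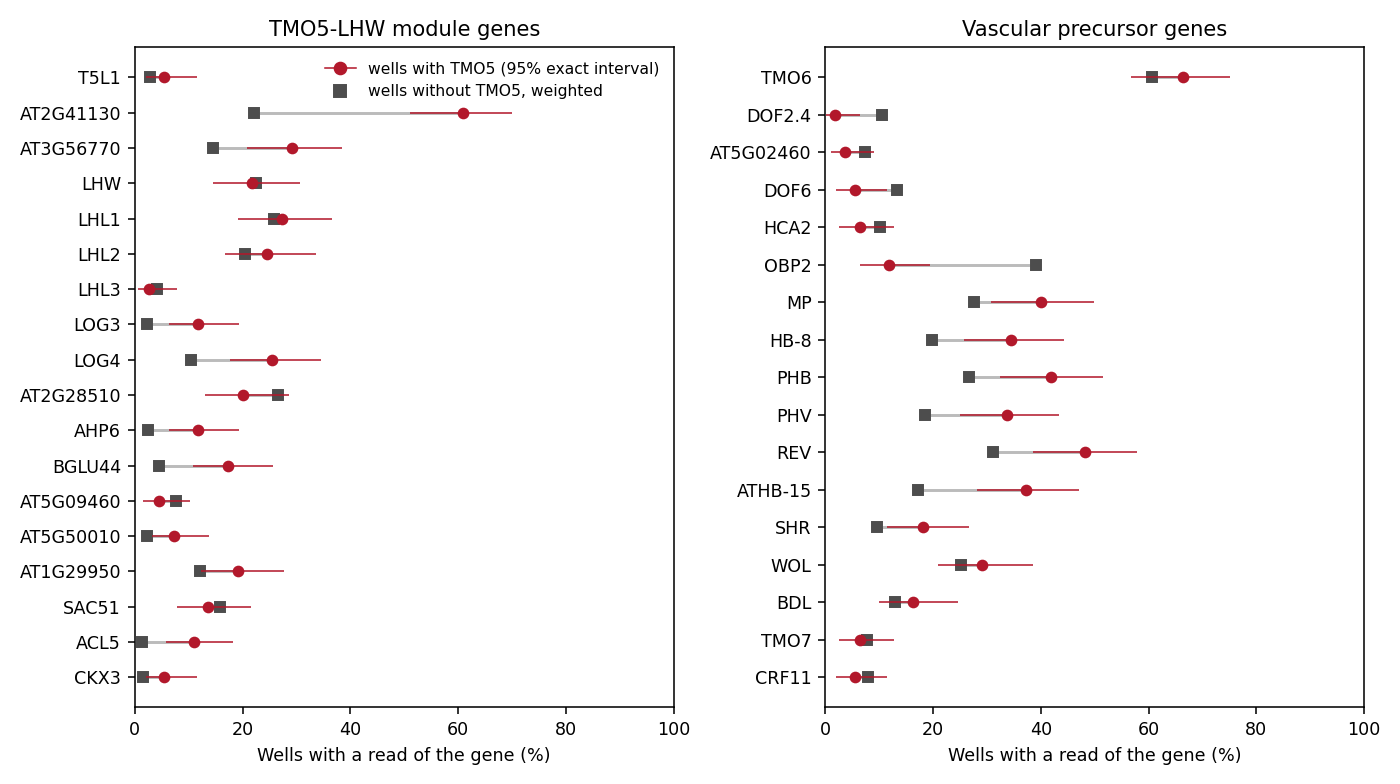
Share of wells with a read (%) for 18 genes of the TMO5-LHW module (left) and 17 vascular precursor genes (right), in the 110 TMO5 wells (red, 95% exact interval) and the other wells (grey, weighted). The bHLH gene AT2G41130 is furthest to the right of its grey mark, and OBP2 furthest to the left.

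The bases upstream of 3 of these genes are shown, those of TMO5 itself and of AT2G41130 and LOG4, both called higher in TMO5 wells. Windows of 250 bases before the annotated gene start were read from TAIR10.1 (NCBI RefSeq), 5′ to 3′ along the gene's strand. Capitals mark a G-box, CACGTG, the core element bound by many bHLH proteins.
TMO5, chr3:9369249-9369498, plus strand: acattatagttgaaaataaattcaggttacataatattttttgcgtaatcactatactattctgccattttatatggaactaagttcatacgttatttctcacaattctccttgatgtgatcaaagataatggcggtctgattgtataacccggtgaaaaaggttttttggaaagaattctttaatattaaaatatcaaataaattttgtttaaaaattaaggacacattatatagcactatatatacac
AT2G41130, chr2:17142907-17143156, plus strand: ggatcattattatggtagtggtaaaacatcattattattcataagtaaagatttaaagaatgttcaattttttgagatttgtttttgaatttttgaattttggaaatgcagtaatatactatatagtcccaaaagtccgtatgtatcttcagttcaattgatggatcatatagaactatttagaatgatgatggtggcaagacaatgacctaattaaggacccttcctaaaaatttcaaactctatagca
LOG4, chr3:19815667-19815916, minus strand: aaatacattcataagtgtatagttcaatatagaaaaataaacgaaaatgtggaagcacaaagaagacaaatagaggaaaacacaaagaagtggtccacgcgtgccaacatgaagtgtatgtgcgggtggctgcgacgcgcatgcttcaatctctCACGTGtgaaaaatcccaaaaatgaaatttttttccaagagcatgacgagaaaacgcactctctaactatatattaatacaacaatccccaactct
The LOG4 window is also shown for its match, and the 3 windows were taken from 10 that were searched after the values were known (with NUDT10, ACL5, AHP6, LOG3, CLE41, OBP2 and IAA28). Letters were sought on both strands for the auxin response elements TGTCTC and TGTCGG, the G-box CACGTG and the DOF core AAAG, with matches free to overlap; TGTCTC and TGTCGG begin with the same letters. The LOG4 window alone held 1 of the first 3, a G-box whose first base lies 96 bases before the gene start and which shares no base with another match. Of 27443 windows of protein-coding genes, 6.49% held CACGTG, 10.9% TGTCTC, 4.16% TGTCGG and 98.0% AAAG. Among the tested genes, from which the calls come, the shares were 8.29, 10.3, 5.15 and 98.1% of 11449 windows. They were 9.09, 10.4, 4.55 and 98.7% among genes called higher and 5.09, 11.5, 7.51 and 97.3% among genes called lower. A match describes letters only, and a missing match says nothing about binding.

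Genes of the vascular precursor list came next. Of 17 genes of the list, 11 were tested, 5 were called higher and 1 lower (2 lower without flow cell 3), with a median ratio of 1.54 against 1.01 over all tested genes, of which 3.24% were called in each direction. The 5 called higher were the class III HD-ZIP genes, which encode homeodomain-leucine zipper proteins that pattern the xylem. ATHB-15 (CORONA) was read in 37.3% (28.2 to 47.0) of TMO5 wells against 17.1%, with 39.4, 50 and 28.6% on the 3 flow cells against 16.2, 14.7 and 19.1%. REV was read in 48.2% against 31.2%, PHB in 41.8% against 26.6%, HB-8 in 34.5% against 19.7% and PHV in 33.6% against 18.5%. The ratios of PHB (1.57) and REV (1.54) lay close to the limit. With 5 classes of gene number in place of 3 they were 1.43 and 1.47, and neither was called, which left 3 genes of the list called higher. PHB had 1.40 after thinning.

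MP was read in 40.0% (30.8 to 49.8) of TMO5 wells against 27.7%, a ratio of 1.45 just under the limit. SHR, the mobile GRAS factor made in the stele, was read in 18.2 against 9.52%, but on flow cell 3 its shares were 16.3 and 16.5%. TMO6, a DOF gene, was the most widely read gene of the list, with 66.4 and 60.6%. The cytokinin receptor gene WOL had 29.1 and 25.2%, and BDL, the Aux/IAA repressor of MP, 16.4 and 12.9%.

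Of the DOF genes of the procambium and protophloem, 1 was called. OBP2 was lower, with a read in 13 TMO5 wells, or 11.8% (6.45 to 19.4), against 39.0%. Its shares were 9.09, 14.3 and 12.2% of TMO5 wells against 49.4, 42.0 and 30.3%, so that no flow cell came near the other group. DOF2.4 was read in 2 TMO5 wells (1.82%) against 10.5%, DOF6 in 5.45 against 13.3%, HCA2 in 6.36 against 10.2% and AT5G02460 in 3.64 against 7.45%, all of them below the limit for testing. On flow cell 3 AT5G02460 had the larger share in TMO5 wells, 6.12 against 4.03%. TMO7 (6.36 and 7.80%) and CRF11 (5.45 and 7.90%) were rare in both groups. At least 2 genes of the list were read in 83.6% of TMO5 wells and 76.1% of the others. The list named vascular precursor thus held calls in both directions, and the wells are called TMO5 wells here.

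The class III HD-ZIP genes were also counted per well. Of the 110 TMO5 wells, 22 had a read of none of the 5 genes, 29 of 1, 22 of 2, 14 of 3, 15 of 4 and 8 of all 5. At least 4 of the 5 were read in 20.9% of TMO5 wells against 5.54% of the others, and none of them in 20% against 41.7%. Seen the other way, TMO5 was read in 19.3% of wells with no class III HD-ZIP gene, in 31.9, 41.5, 43.8 and 68.2% of wells with 1, 2, 3 and 4, and in 80.0% of the 10 wells with all 5. Median gene number over the same classes ran from 3657.5 to 5680.5, and these last shares are not weighted for it.

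**Figure D3:**
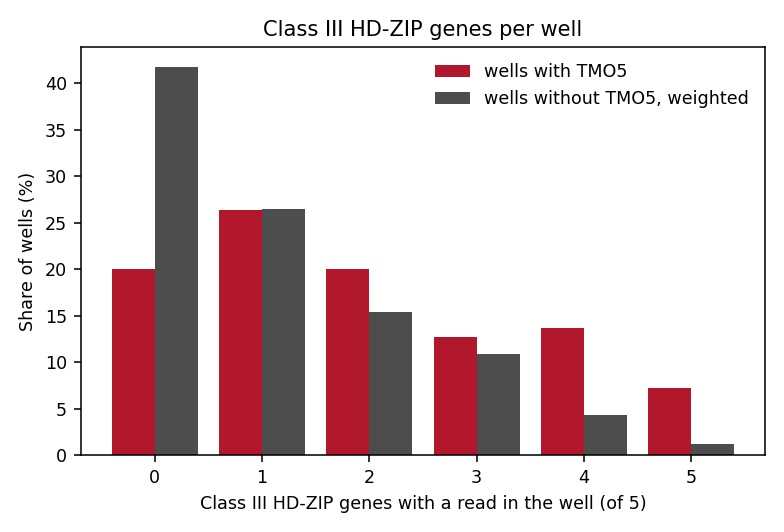
Share of wells (%) by the number of class III HD-ZIP genes with a read (0 to 5), for the 110 TMO5 wells (red) and the other wells (grey, weighted). TMO5 wells have 20% at 0 genes against 41.7%, and 7.27% at all 5 against 1.21%.

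Outside both lists, the genes with the largest differences were mostly of little-known function. AT2G43120 (PIRIN2), a cupin protein gene, was read in 95 TMO5 wells, or 86.4% (78.5 to 92.2), against 48.0%. Its shares were 90.9, 92.9 and 79.6% on the 3 flow cells against 42.2, 62.8 and 43.5%. In wells with a read its median level was 743 CPM with TMO5 and 329 CPM without, with highest values of 12059 and 4988 CPM. Both its detection and its level were thus higher in TMO5 wells. AT1G50590, another cupin gene, was read in 40.0% against 12%. AT3G18280, annotated as a lipid-transfer and seed storage 2S albumin family gene, was read in 63.6% (53.9 to 72.6) against 27.3%.

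NUDT10 (AT4G25434), a nudix hydrolase gene, had the highest ratio of the 15 genes with the largest rise in share. It was tested only through the TMO5 wells, since 8.49% of the other wells, before weighting, held a read. It was read in 40 TMO5 wells, or 36.4% (27.4 to 46.1), against 7.07%. On flow cells 1, 2 and 3 the shares were 45.5, 39.3 and 28.6% against 8.83, 8.47 and 5.09%. A larger share on each flow cell is part of the rule for calling. Of the 58 wells with a NUDT10 read, 69.0% (55.5 to 80.5) held TMO5, against 34.2% of all kept wells, without weights for gene number. Others of the 15 were AT5G54980 (CASP-like protein 2D1; 38.2 against 11.5%), PLC1, a phospholipase C gene (45.5 against 22.1%), AT5G46730, a glycine-rich protein gene (60.9 against 34.6%) and AT3G55690, of unknown function (50.9 against 25.1%). AT1G30760, a berberine-bridge type oxidase gene, was read in 47.3 against 24.7% of wells, AT4G22212, a defensin-like gene, in 35.5 against 13.1%, and AT3G18560 in 41.8 against 18.6%. AT1G11210 was read in 66.4 against 43.1%, and its ratio fell below the limit without flow cell 1 and, at 1.47, without flow cell 2.

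The genes read in fewer TMO5 wells were led by CLE41 (AT3G24770), which encodes the peptide that phloem cells send to the procambium, where it blocks xylem formation. CLE41 was read in 22 TMO5 wells, or 20% (13 to 28.7), against 59.8%. The shares on the 3 flow cells were 27.3, 17.9 and 16.3% against 64.0, 61.6 and 56.0%, so the groups lay far apart on each. In wells with a read its median level was 50.1 CPM with TMO5 and 75.1 CPM without. OBP2, already described, and OBP3, a further DOF gene (15.5% against 41.6%), followed.

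MT2A, a metallothionein gene, was read in 18.2 against 43.7% of wells, and SPDS1, a spermidine synthase gene, in 30.9 against 55.8%. With weights by flow cell only, SPDS1 was read in 30.9 against 44.4% and was not called. AT2G31940, annotated as an oxidoreductase, was read in 4 TMO5 wells (3.64%, 1.00 to 9.05) against 28.5%, the lowest ratio of the 10 genes with the largest fall. The last 4 of the 10 were AT3G23570 (12.7 against 38.3%), AT5G23830 (15.5 against 40.0%), AT1G78850, a lectin gene (38.2 against 62.5%), and AT5G02230, a hydrolase gene (35.5 against 59.5%). AT5G02230 had a ratio of 0.69 with weights by flow cell only, and AT1G78850 had 0.69 without the 10% of wells with the most genes, and neither was then called.

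**Figure D4:**
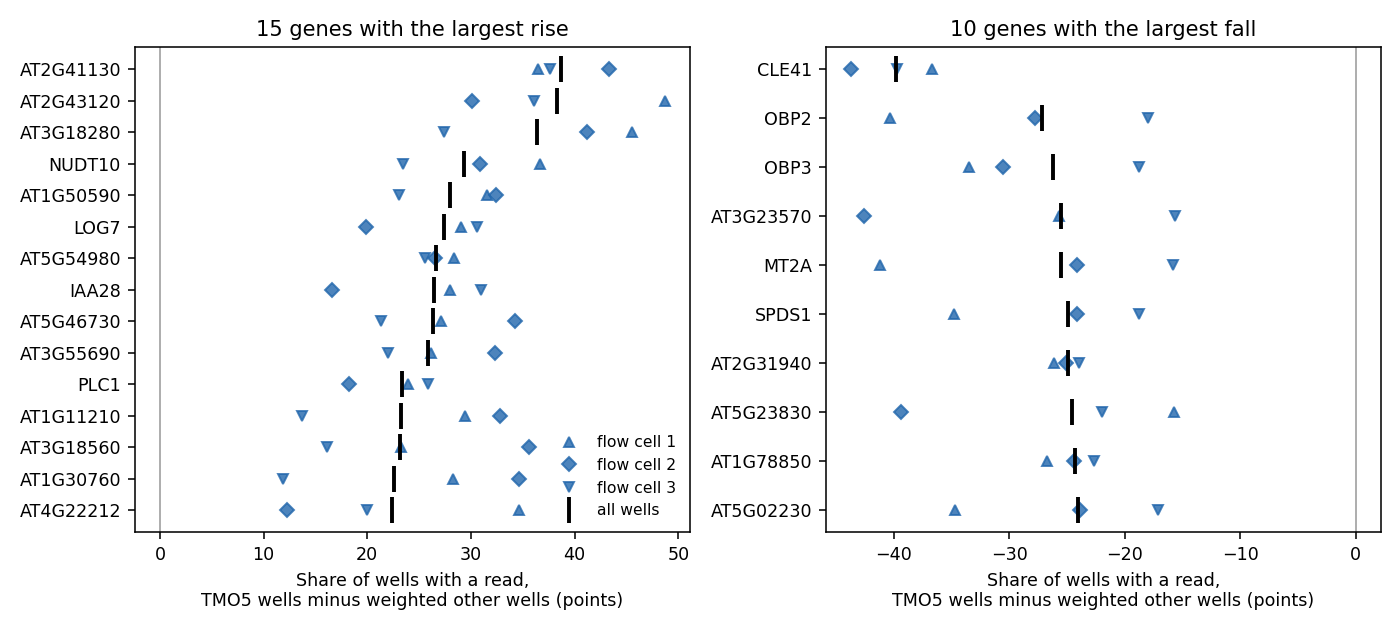
Difference in the share of wells with a read (percentage points, TMO5 wells minus weighted other wells) for the 15 genes with the largest rise (left) and the 10 with the largest fall (right). Blue marks are the 3 flow cells and black bars all wells; each gene keeps its side of 0 on every flow cell, as the rule for calling requires.

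Combinations of these genes, chosen after the values had been seen, were counted per well; whether the genes shared wells beyond the link of each with TMO5 was not tested. At least 1 of LOG3, AHP6, ACL5 and BGLU44 was read in 47 TMO5 wells (42.7%) against 10.5% of other wells. Of the 36 wells with at least 1 of these genes and AT2G41130, 31 held TMO5, a share of 86.1% (70.5 to 95.3). Of the 34 wells with at least 1 of these genes but no AT2G41130, 47.1% (29.8 to 64.9) held TMO5. Shares of a set of wells that held TMO5 are not weighted for gene number, and 34.2% of all kept wells held TMO5. AT2G41130 was read without CLE41, OBP2 or OBP3 in 40 TMO5 wells (36.4%) against 2.71%, and 85.1% (71.7 to 93.8) of all 47 such wells held TMO5. At least 1 of CLE41, OBP2 and OBP3 was read in 47 TMO5 wells (42.7%) against 78.6%. TMO5 wells were therefore not free of these genes. AT2G41130 was read together with at least 1 of the 3 in 27 TMO5 wells (24.5%) against 19.5% of the others. Of all 60 such wells, 45.0% (32.1 to 58.4) held TMO5. A remainder of 12 TMO5 wells (10.9%) held neither AT2G41130 nor a class III HD-ZIP gene, against 35.7% of the others; they had a median of 3487 genes and 48.5 TMO5 reads.

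TMO5 wells were also compared among themselves by TMO5 level, the quantity they were chosen on, so that what follows is a description over wells of 1 sample. They were split within each flow cell into 3 classes of TMO5 level, of 36, 36 and 38 wells, with medians of 61.5, 272 and 745 CPM. Median gene number did not follow the level, with 4641, 5315 and 4397. NUDT10 was read in 16.7% (6.37 to 32.8), 25% (12.1 to 42.2) and 65.8% (48.6 to 80.4) of the 3 classes. ATHB-15 was read in 25, 30.6 and 55.3% and PHB in 27.8, 36.1 and 60.5%. IAA28 was read in 66.7, 75.0 and 89.5%, PHV in 22.2, 33.3 and 44.7% and HB-8 in 25, 33.3 and 44.7%. AT2G41130 showed no such order, with 61.1, 63.9 and 57.9%, and neither did REV, with 44.4, 50 and 50%. LOG4 (27.8, 25 and 23.7%) and BGLU44 (22.2, 16.7 and 13.2%) went the other way. LOG3 and AHP6 each had 5.56, 19.4 and 10.5%, and LOG7 had 69.4, 63.9 and 78.9%. ACL5 had 5.56, 5.56 and 21.1%, and OBP3 16.7, 11.1 and 18.4%. CLE41 was read in 25, 25 and 10.5%, and OBP2 in 2.78, 13.9 and 18.4%. These genes were chosen after their values had been seen, and the order is a description.

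**Figure D5:**
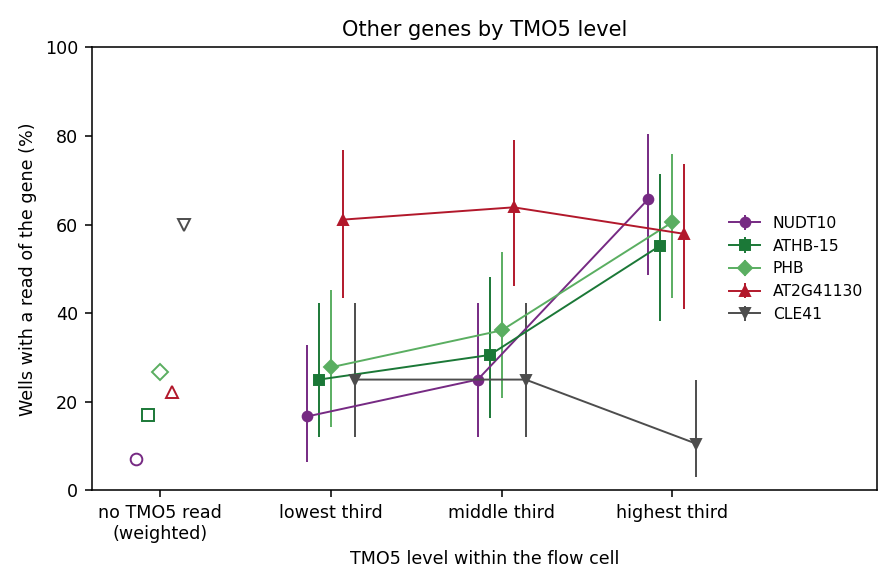
Share of wells with a read (%) of 5 genes in wells without a TMO5 read (open marks, weighted) and in the lowest, middle and highest of 3 classes of TMO5 level (filled marks, 95% exact interval; 36, 36 and 38 wells). NUDT10, ATHB-15 and PHB are highest in the upper class, while AT2G41130 stays near 60.9%, its share over all TMO5 wells.

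Levels were compared next, as the log2 ratio of summed reads per group and flow cell (CPM with TMM factors), averaged over the 3 flow cells. A gene was called at a difference of at least 1 with the same sign on each flow cell. No single well could give above 50% of its reads in the group where it was higher. The group where it was lower had no such limit, and levels were not weighted for gene number. For NUDT10, 1 well gave 53.7% of the reads of the other wells, and for NAT7 1 well gave 91.7% of those of the TMO5 wells. These rules called 415 genes higher (3.55%) and 591 lower (5.06%), and 120 and 177 of them were also called by detection. Without flow cell 1, 2 or 3 the counts were 712, 723 and 815 higher and 928, 821 and 1083 lower. The median over all genes was -0.03. AT2G41130 had 2.08, with 1.89, 2.21 and 2.16 on the flow cells, AT2G43120 had 1.75 and NUDT10 2.95. CLE41 had -2.50 and OBP2 -3.68.

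Of the 9 tested module genes 4 were called higher in level and 0 lower, namely AT2G41130, AT3G56770 (1.98), AT1G29950 (1.75) and LHL2 (1.21), the last not called by detection. Of the 11 vascular precursor genes ATHB-15 (1.25) and SHR (2.48) were called higher and OBP2 lower. Over all tested genes, 3.55% were called higher in level and 5.06% lower. LOG4 had 0.42 and was called by detection alone.

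Among the genes called in level, MYB41, a MYB factor gene, had the highest ratio, 3.59, with 2.84, 2.69 and 5.25 on the flow cells and a read in 19.1% of TMO5 wells against 4.77%. AT3G08630 (3.41), THO7, a subunit gene of the THO complex in mRNA export (3.36), AT2G34340 (3.28), AT1G24130 (3.23), AT3G05700 (3.22) and AT3G51720 (2.71) followed. These genes were read in 19.1 to 24.5% of TMO5 wells, so each sum rests on few wells. Of the genes called higher in level, 119 were read in fewer than 10% of the other wells and were tested through the TMO5 wells alone. All 7 of these genes and SHR were among the 119. Leaving out 1 flow cell gave 1.00 to 4.69 for AT3G05700, 2.48 to 4.85 for AT3G08630, 2.76 to 4.05 for MYB41 and 2.61 to 3.75 for THO7. The same gave 2.89 to 3.91 for AT2G34340, 2.35 to 4.04 for AT1G24130 and 2.17 to 3.73 for AT3G51720. The lowest ratios among called genes were those of NAT7, a nucleobase-ascorbate transporter gene (-6.50), AT4G39700 (-6.39), AT1G26450 (-6.28), the tetraspanin gene TET5 (-4.99) and MYB96 (-4.98). Of the genes called lower in level, 79 were read in fewer than 10% of the TMO5 wells and were tested through the other wells alone. NAT7, AT4G39700, AT1G26450 and MYB96 were among them. NAT7 was read in 3 TMO5 wells, and its ratio without flow cell 1 was -8.11. TET5 had -2.51 without flow cell 2, and MYB96 -3.19 without flow cell 1. AT1G26450 had -4.56 without flow cell 2, and AT4G39700, with no read in the TMO5 wells of flow cell 1, had -4.25 without that flow cell.

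Genes of the cytokinin list were called in both directions. LOG7 was read in 70.9% (61.5 to 79.2) of TMO5 wells against 43.5%, with 75.8, 75.0 and 65.3% against 46.7, 55.1 and 34.7% on the flow cells; its ratio without flow cell 3 was 1.49. LOG1 was read in 16.4 against 9.63%, and its ratio was 1.19 without flow cell 1, 1.30 without plate 3 and 1.36 with weights by flow cell only. Any of LOG1, LOG3, LOG4 and LOG7 was read in 81.8% (73.3 to 88.5) of TMO5 wells against 51.3%. These 4 were put together after each had been seen in a larger share of TMO5 wells, so their joint share is a description. LOG7 alone gave 70.9 against 43.5%. Of the 24 genes of the cytokinin list 8 were tested, where 3.24% of all tested genes were called in each direction, with LOG1 and LOG7 called higher and the cytokinin response factors CRF2 (9.09 against 17.2%) and CRF3 (10.0 against 22.8%) lower. After thinning, CRF2 was read in 10.0 against 13.2% and was not called. ARR5, an early response gene, was read in 11.8 against 22.9% and was not called by detection, though its level was (-2.25); AHK3, a receptor gene, in 52.7 against 59.4%, and ARR4 in 24.5 against 30.6%. ARR8, too rare to be tested, was read in 12.7 against 7.96%.

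In the auxin list, 12 of 21 genes were tested, and 2 were called higher and 2 lower, against 3.24% of all tested genes in each direction. GH3.6 (33.6 against 21.3%) and GH3.1 (22.7 against 14.3%) were higher and GH3.5 (14.5 against 30.0%) lower, all 3 of a family of auxin-conjugating enzymes. The ratio of GH3.1 was 1.27 without flow cell 1 and 1.39 without plate 3, and that of GH3.6 was 1.48 after thinning and 1.39 counting from 3 reads. GH3.5 was not called after thinning (12.2 against 23.9%) or with weights by flow cell only (14.5 against 23.8%). LAX3, an influx carrier of the cells around the primordium, was lower with 11.8 against 22.8% (ratio 0.69 without flow cell 1). LAX2, the carrier of the young vasculature, was read too rarely to be tested, in 21 TMO5 wells and 10 others (19.1 against 6.98%), though on flow cell 2 its shares were 14.3 and 15.9%. IAA2, a broad auxin response gene, was read in 94.5 and 94.8% of wells. AFB2, an auxin receptor gene named after its values had been seen, was read in 53.6 against 31.4%.

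Of 18 lateral root regulators, 11 were tested, 2 were called higher and 0 lower, where 3.24% of all tested genes were called in each direction. IAA28, an Aux/IAA repressor of founder cell specification, was read in 77.3% (68.3 to 84.7) of TMO5 wells against 50.9%, a ratio of 1.52 that was 1.48 without flow cell 1, 1.43 without flow cell 3 and 1.47 after thinning, each below the limit. WOX11, a homeobox gene of root founder cells, was read in 12.7 against 7.55%. Its ratio was 1.30 without flow cell 2, and without plate 3 it was read in too few wells. With weights by flow cell only, WOX11 was read in 12.7 against 9.38% (ratio 1.36) and was not called. No other marker of the primordium was called by detection, and PLT5 was called lower in level (-1.31), with a read in 32.7 and 43.8% of wells. LRP1 was read in 59.1 and 66.9%, PLT3 in 56.4 and 50.9%, LBD16 in 32.7 and 42.0% and PUCHI in 10.0 and 10.7%.

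None of the few tested genes of other root cell types was called higher by detection, against 3.24% of all tested genes. Of 16 phloem genes 6 were tested, 0 were called higher and 2 lower, namely SMXL3 (5.45 against 18%) and NAC020 (8.18 against 19.9%), while OPS was read in 43.6 and 36.2% of wells, its level being called lower (-1.05). NAC020 (-4.77) and CVP2 (-1.90) were the other 2 phloem genes called lower in level. In the pericycle list MYB68 was lower (9.09 against 23.7%) and PHO1 was read in 44.5 and 35.4%, while AT4G30450, a glycine-rich protein gene too rare to be tested, was read in 11 TMO5 wells and 4 others. SCR, the one endodermis gene tested of 12, was lower with 10.0 against 18.6%; with weights by flow cell only the shares were 10.0 and 12.5%, and it was not called. After thinning, counting from 3 reads, or without the 10% of wells with the most genes, SCR was read too rarely to be tested. MYB36, a master gene of the Casparian strip, was read in 1 TMO5 well and 19 others. No cortex, epidermis or root cap gene was read widely enough to be tested. JKD was read in 4 TMO5 wells, GL2 in 2 and SMB in 1. The niche genes WOX5 (15.5 and 14.2%) and BBM (13.6 and 12.7%) were not called.

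Of 15 xylem genes only XYP1 (40.9 and 34.2%) and XYP2 (30.0 and 31.0%) were tested, and neither was called. Below the limit, VND2, a NAC gene of vessel formation, was read in 19 TMO5 wells (17.3%) and 6 others (1.55% weighted). At least 1 of VND1, VND2 and VND3 was read in 23 TMO5 wells, or 20.9% (13.7 to 29.7), against 2.46%, with 24.2, 32.1 and 12.2% on the flow cells against 5.79, 1.00 and 1.06%. VND6 or VND7, the master genes of vessel formation, was read in 3 TMO5 wells and in 0 of 212 others, which allows a share of up to 1.42% by the limit of 3 counts and 1.72% by the exact interval. At least 1 of the late xylem genes XCP1, XCP2, IRX1, IRX3 and IRX5 was read in 7.27% of TMO5 wells and 6.84% of the others. These late genes were rare and unlike each other, with XCP1 in 5 TMO5 wells and 1 other and IRX3 in 0 TMO5 wells, which allows up to 2.73% by 3 counts and 3.3% by the exact interval, and 6 others.

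Of the genes of cell division, 1 was called by detection, where 3.24% of all tested genes were called in each direction, so that a list of this size with no call is near the background. Of 12 S phase genes 11 were tested and none was called by detection, though MCM7 was by level (1.78), with RNR1 at 37.3 and 30.2%. Yet 10 of the 11 had the larger share in TMO5 wells, with a median ratio of 1.17 against 1.01 over all tested genes. Their median log2 ratio of levels, not weighted for gene number, was 0.70 against -0.03. Of 13 D cyclins and kinase inhibitors 4 were tested and none was called, with CYCD3;2 at 51.8 and 46.2%. AUR1, a mitotic kinase gene, was the only G2 and M phase gene tested of 16, which it was through the TMO5 wells alone, and was called higher (16.4 against 9.40%). Without plate 3 its ratio was 1.72, near the 1.74 of all wells, though it was not called. Any B-type cyclin gene was read in 20% of TMO5 wells and 20.3% of the others. All 11 genes of protoplasting stress were tested and none was called by detection, with JAZ1 at 95.5 and 96.1%, though BAP1 was lower in level (-1.51). In the green tissue list RCA, the 1 gene tested of 6, was read in 10.9 and 12.6% of wells, and its level was called lower (-1.43).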

How the data were processed

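Single-cell RNA-seq of sorted lateral root primordium cells was analysed from the raw counts that the authors deposited (1 table, 573 wells, 32833 genes) and a deposited text that ties each well to a plate and a flow cell. Reads were assigned on TAIR10 (the submitters' processing notes). Aligner, counting rule and strand setting: not given in the sources used here, so reads of overlapping genes cannot be told apart. No molecular identifiers are named. No 2 wells had the same name or the same counts. Wells with at least 500 genes with a read were kept (322 wells, 8315 to 1459543 reads, median 245742; 506 to 9516 genes), with no doublet caller and no limit on organelle reads. Median reads were 408532, 440181 and 132330 on flow cells 1, 2 and 3.

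Detection is the share of wells with a read; the other wells were weighted over 9 strata (flow cell and 3 classes of gene number). Levels are summed CPM with TMM factors (edgeR 4.0.16, R 4.3.3), with sums of 0 at a floor of 3 reads. Intervals are exact 95% (scipy 1.17.1, Python 3.11.15). Without wells tied to replicates no test was run, and the counting scripts were tested on simulated data. Named genes are all members of the TMO5-LHW and vascular precursor lists, called members of the other lists and the most widely read member of each, the 15 highest and 10 lowest called differences in detection and the 8 highest and 5 lowest in level. AFB2, MYB20, MYB84, GA2OX2, the other uncalled list members named, the combinations of genes, the genes by TMO5 level and the upstream windows were chosen after their values had been seen. The members and the 18 lists were chosen with earlier results of these data known, and 1 gene of the vascular precursor list is not reported here and was left out of its counts. Gene names are those of the TAIR10.1 reference, where 32548 of the table's identifiers matched; a gene it gives no symbol keeps its identifier. Alternatives were other limits for wells, genes and reads, thinning, other weights, other factors, leaving out each flow cell and, added after seeing the data, leaving out plate 3 and the 10% of wells with the most genes.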

Additional observations from a re-analysis of the deposited data

How the results depend on the processing

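No paired analysis was possible because the wells carry no replicate number. The number of TMO5 wells was 93 with at least 10 TMO5 reads. Counts of genes called moved with the weights, the limits and the measure of level. Detection called 1674 genes higher and 125 lower with weights by flow cell only, 668 and 708 among genes read in at least 5% of wells, 101 and 106 in at least 20%, 1038 and 1183 with no filter beyond 10 reads in 5 wells, and 86 and 102 at a ratio of 2. Without flow cell 1, 2 and 3 it called 626, 582 and 818 higher and 675, 645 and 701 lower. Level called 655 genes higher and 959 lower at 5% of wells, 156 and 248 at 20%, and 1087 and 35 with the mean of log2(CPM + 1) over wells. With that mean, 111 of the 415 genes first called higher and 29 of the 591 first called lower were still called. Without flow cell 1, 2 and 3 it called 712, 723 and 815 higher and 928, 821 and 1083 lower.

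In the TMO5-LHW module 9 genes were called higher with no filter and 1 at 20% of wells, and 1 was called lower at 5%, with no filter, without flow cell 3 and without the 10% of wells with the most genes. Of the vascular precursor genes 8 were called higher with weights by flow cell only, 3 with 5 classes of gene number, 1 at a ratio of 2 and 3 without those wells, where PHB and HB-8 were not called; 4 were called lower at 5% and with no filter, and 2 after thinning and without flow cell 3. Over the 61 called genes named here and the 11 alternatives that change shares, 69 of 671 calls were lost, 25 of them because the gene was no longer tested, in 28 genes, and 15 differences in share moved beyond the counting interval. For the 13 genes with the highest and lowest called levels and the 7 alternatives that change levels, 27 of 91 level differences moved by 1 or more on the log2 scale. The causes were not tested. The number of wells limits the precision for rare genes, since a gene read in 13 of the 110 TMO5 wells has an interval of 6.45 to 19.4%.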

Other observations

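IAA28 and LBD16, an early target of auxin in founder cells, were read together in 30.0% of TMO5 wells and 21.4% of the others. LBD16 without IAA28 was read in 3 TMO5 wells, or 2.73% (0.57 to 7.76), against 20.6%, with 3.03, 3.57 and 2.04% on the flow cells against 25.7, 13.1 and 21.4%. IAA28 without LBD16 was read in 47.3% against 29.5%. MYB20 was read in 32.7% (24.1 to 42.3) of TMO5 wells against 12.5%, and MYB84 in 20% (13 to 28.7) against 41.4%. At least 1 of MYB84 and MYB68 was read in 22.7% of TMO5 wells against 47.0%. GA2OX2, a gibberellin catabolism gene, was read in 38.2% against 59.6%, and it was not called without flow cell 1 or plate 3 (ratio 0.69), with at least 5 TMO5 reads (0.68) or with weights by flow cell only (0.81, 38.2 against 47.4%). CYCB2;4, a B-type cyclin gene too rare to be tested, was read in 12 TMO5 wells and 3 others. It was picked out of its family, since any B-type cyclin gene was read in 20% of TMO5 wells and 20.3% of the others. These genes and combinations were chosen after their values had been seen.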
